A study of Xenopus laevis with 3 samples.

Results

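The microRNA families that a count table of frog larvae lists only under the names of other animals are described here. An entry belonged to this set when its family, taken as the number after miR or let with letters and arms ignored, had no entry under a Xenopus prefix (xtr for X. tropicalis, xla for X. laevis, xbo for X. borealis) and when its counts summed to at least 30 over the libraries. Of the 1272 entries of the table, 190 entries of 85 families had no Xenopus entry, and 51 entries of 25 families also reached 30 counts. The rest stayed below that sum and are not described further. Just inside the limit lay 3 entries of the 3p arm of miR-1306 with 31 counts each, and just outside it hsa-miR-1234-5p with 29 and cgr-miR-2424 with 26. Those 3 entries (aca-miR-1306, gga-miR-1306 and rno-miR-1306-3p) reached the sum only with their 6 counts from the sibling library. Also outside, with 25 counts each, lay hsa-miR-1306-3p and cgr-miR-1306-3p of the same arm, which had 2 sibling counts each.

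Small RNA was counted in neuronal tissue cut from the accessory olfactory bulb, a forebrain relay for chemical signals, of Xenopus laevis larvae of stage 45, described as 15 days old. The larvae had been reared as orphans, with siblings or with non-siblings, and 1 library stands for each rearing condition (orphan, sibling, non-sibling). The labels name 15 larvae without saying whether they are 15 per condition, and give no genotype, no treatment beyond rearing and no pooling scheme. With 1 library per condition no difference has a replicate check or a p-value, and each one describes these libraries.

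MicroRNAs are cut by Drosha, with its partner DGCR8, and then by Dicer out of hairpin precursors. Both arms of a hairpin can leave a mature strand, and the seed (bases 2 to 8) chooses its targets. Many microRNAs are shared by all vertebrates, so one that is missing from the annotation of a frog can still be found through the entry of a fish, a lizard or a bird. Short pieces of ribosomal RNA (rRNA) and transfer RNA (tRNA) also enter small RNA libraries. Some were once catalogued as microRNAs of 1 species. Mature tRNAs end in CCA, which is added after transcription, and carry a conserved loop near that end.

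Column totals were 22538325 (orphan), 865654 (sibling) and 5188106 (non-sibling) counts, and entries that share sequence can count a read more than once. Levels are given as scaled CPM, which are counts per 1e+06 of a library size adjusted by the TMM method (a trimmed mean of the log ratios between libraries). A single count was worth 0.0460 (orphan), 1.41 (sibling) or 0.152 (non-sibling) scaled CPM. The labelled tissue was checked on the 9 Xenopus entries of neuronal microRNAs (miR-9, miR-124, miR-128, miR-137 and miR-218), all of which had counts in every library and which summed to between 9455 and 19055 scaled CPM. Markers of other tissues were present too, with summed levels of 29539 to 52485 scaled CPM for sensory organs, 2939 to 4371 for skin, 2792 to 4655 for muscle, 448 to 1343 for gut and 8.48 to 32.997 for red blood cells. None of these marker entries was at 0 in a library. Their part in the results below was not tested.

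The 51 entries were sorted by name. A list of families annotated in more than 1 vertebrate group held 29 of them, a list of names known to lie in other RNA held 7, and 15 stood on neither list. Both lists were chosen with earlier results of these data known. After the sequences had been read, 8 of those 15 were added to the vertebrate families (miR-21, miR-141 and miR-456) and 4 to the other RNA (miR-2478, miR-1386, miR-4286 and miR-5100). This left 3 unassigned. The sorting so extended, used from here on, gave 37 entries of 11 vertebrate families, 5 names known from rRNA and 3 unassigned entries. It also gave 6 names known from tRNA or placed there after the sequences had been read. No ribosomal or transfer RNA sequence was analysed here, so these assignments rest on names and on the letters of the entries. Within a family, entries that share a run of at least 15 bases were taken as 1 read group, since they can share reads, which left 29 read groups, each named by its most abundant entry.

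The vertebrate microRNAs on which the results turn are shown with the seed in capitals, beside the Xenopus entries that have the same seed.
dre-miR-454b: uAGUGCAAuauugcuuauaggg
xtr-miR-130c: cAGUGCAAuauuaaaagggcau
xtr-miR-130b: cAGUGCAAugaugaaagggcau
dre-miR-141: uAACACUGucugguaacgaugc
xtr-miR-200a: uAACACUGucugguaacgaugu
sha-miR-21: uAGCUUAUcagacugauguugacug
aca-miR-21-3p: cAACAACAgucgguaggcugu
hsa-miR-1306-5p: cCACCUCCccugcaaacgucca
aca-miR-1306: uGGACGUUggcucuggugguga
gga-miR-460a: cCUGCAUUguacacacugugug
aca-miR-460a-3p: cACAGCGCauacaauguggau
gga-miR-1662: uUGACAUCaucauacuugggau
ola-miR-1788: cAGGCAGCuaaagcaaguc
tgu-miR-1329: uACAGUGAucagguuacgaugga

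The names known from rRNA are shown without capitals, because no part of them was singled out.
mmu-miR-6243: accaucugugggauuaugacugaacg
mmu-miR-5109: uguugcggaccaggggaauccga
mmu-miR-6240: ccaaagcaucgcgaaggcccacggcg
sha-miR-716b: agaucuuggugguaguagcaaauau
hsa-miR-6087: ugaggcgggggggcgagc

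In the names placed with tRNA, capitals mark a CCA at the 3′ end or the motif UCGAAUC, which lies in the conserved loop of many tRNAs.
bta-miR-2478: guaucccacuucugacaCCA
cgr-miR-1260: aucccaccgcugccaCCA
oan-miR-1386: cuccuggcuggcucgCCA
hsa-miR-4454: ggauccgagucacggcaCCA
mmu-miR-5100: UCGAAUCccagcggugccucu

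Sequence set the kinds of entry side by side as follows, as a description. The rule that an entry end in CCA, searched on the given strand, was met by 4 of the 6 tRNA names, and these letters were also used to place miR-2478 and miR-1386 there. Among the 37 vertebrate entries 1 ended in CCA (hsa-miR-1306-5p), against 9 of the 693 distinct sequences (1.30%) of the other entries with at least 30 counts. The motif UCGAAUC, searched on the given strand, was present in mmu-miR-5100 and in no other of the 1144 distinct sequences of the table (0.0874% of them). mmu-miR-5100 was placed with the tRNA names after these letters had been read, so the match is not evidence for its place. hsa-miR-4286, added to the tRNA names at the same step, has neither the final CCA nor the motif, and its place was not tested. GC content was 50.0 to 72.2% in the tRNA names, 36.0 to 83.3% in the rRNA names and 33.3 to 66.7% in the vertebrate families, beside a range of 23.8 to 65.0% with a median of 45.5% in the other entries. The tRNA names were 17 to 21 nt long with a median of 19, the rRNA names 18 to 26 nt with a median of 25, and the vertebrate families 19 to 25 nt with a median of 22. A first base U, the usual 5′ base of animal microRNAs, was seen in 18 of the 37 vertebrate entries (48.6%) and in 3 of the 11 rRNA and tRNA names (27.3%). It was seen in 53.1% of the distinct sequences of the other entries and in 60.9% of the distinct Xenopus sequences, each with at least 30 counts.

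**Figure D1:**
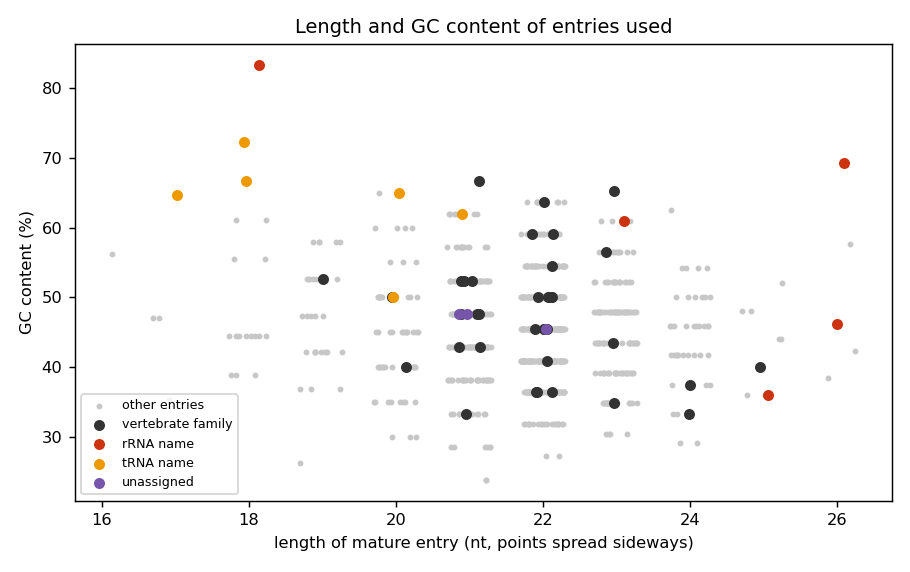
Length (x axis, nt) against GC content (y axis, %) of the 866 entries with at least 30 counts, with points spread sideways. The tRNA names lie at 17 to 21 nt, and 2 of the 5 rRNA names (mmu-miR-6243 and mmu-miR-6240) are 26 nt long. The vertebrate families lie among the other entries (grey), except for bta-miR-1306 (66.7% GC) and mmu-miR-1306-5p (65.2%). These lie above the 65.0% maximum of the other entries.

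The number of species prefixes bears on how the lists were drawn up, since the vertebrate list asked for more than 1 vertebrate group, and is given as a description. Of the 11 vertebrate families, 8 were listed under at least 2 species prefixes, with up to 8 for miR-21 and 7 for miR-1306. Of the 11 rRNA and tRNA names, 9 were listed under 1 prefix and 2 under 2 prefixes (miR-1260 and miR-5100). Both arms of a precursor were present for miR-21, miR-460 and miR-1306. In computed duplexes the arms paired over 19 bases for miR-21 (-24.0 kcal/mol), 16 for miR-460a (-19.3 kcal/mol) and 16 for miR-1306 (-24.2 kcal/mol, with a human 5p and a lizard 3p entry). These entries of other animals are catalogued as arms, so their pairing was fixed in advance. It is no evidence that the frog reads come from microRNAs. The lizard entry, aca-miR-1306, passed the filter only with its sibling counts.

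Nearness to a Xenopus entry separated miR-141 from the rest. dre-miR-141 differs from xtr-miR-200a by the substitution C22U alone, counted from 1 at the 5′ end, so its family number is absent from the frog entries while 21 bases of its sequence are not. Counts of dre-miR-141 were 0.160 times those of xtr-miR-200a in the orphan library (95% counting interval 0.148 to 0.172), 0.202 times in the sibling library (0.138 to 0.289), and 0.160 times for non-sibling counts (0.147 to 0.175). These intervals overlap. Whether reads were shared between these entries was not tested. Seeds were shared with Xenopus entries by dre-miR-141 (xtr-miR-200a) and by the miR-454 entries (xtr-miR-130a, xtr-miR-130b, xtr-miR-130c and xtr-miR-301). No other read group shared its seed with a Xenopus entry, and each other entry was at least 6 edits from its nearest one.

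The entries without a Xenopus family took 1.34% of orphan counts, with an exact binomial 95% interval of 1.34 to 1.35%. They took 5.80% of sibling counts (5.75 to 5.85%) and 1.64% of non-sibling counts (1.63 to 1.65%). Reads counted under several overlapping entries add to the set and to the library totals, so these shares depend on how entries are merged. All of them were larger with 1 entry per distinct sequence in the whole table. With 1 entry per read group the set took 0.487%, 5.29% and 0.5996% of the full column totals, in which the other families were left unmerged. Their makeup differed more than these totals. Vertebrate families supplied 93.9% of the orphan, 13.1% of the sibling and 94.8% of the non-sibling counts of the set, or 83.1%, 4.71% and 85.8% with 1 entry per read group. The 5 rRNA names held 4.81% of all sibling counts (4.77 to 4.86%), against 0.0253% in the orphan and 0.0368% in the non-sibling library. The 6 tRNA names held 0.211% of sibling counts (0.201 to 0.221%), against 0.0518% and 0.0412%. Without the rRNA names the other 46 entries held 1.32% of orphan, 0.987% of sibling and 1.60% of non-sibling counts, so the excess of the sibling library lay in the rRNA names.

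**Figure D2:**
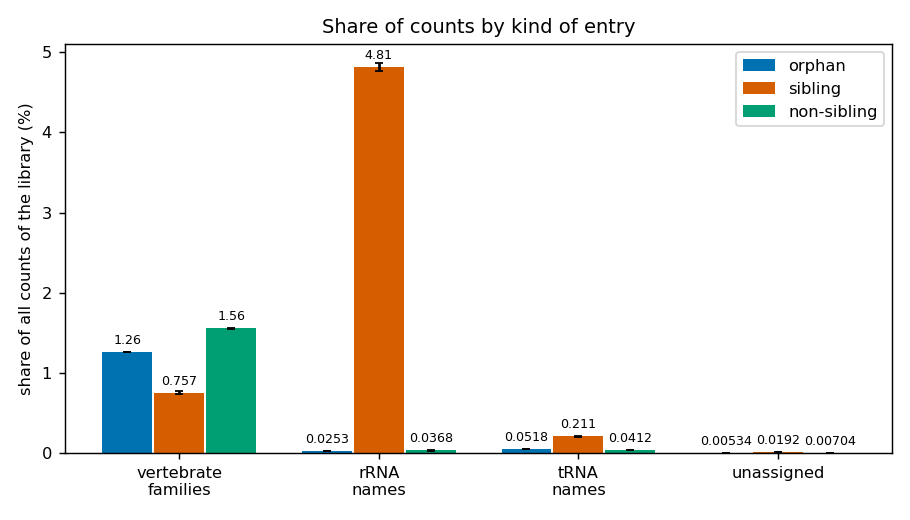
Share of all counts of a library (y axis, %) held by each kind of entry, with 1 bar per library and 95% exact binomial intervals, which cover counting error only. The rRNA names reach 4.81% in the sibling library and stay under 0.04% in the others, whereas vertebrate families are lowest in the sibling library at 0.757%.

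miR-454 was the most abundant of the vertebrate families. It carries the seed of miR-130 and miR-301 and is counted with them as 1 seed family. dre-miR-454b had 65806 orphan, 1420 sibling and 14996 non-sibling counts, or 3024, 2008 and 2280 scaled CPM. The levels thus lay close together, highest in the orphan library. The ratio was 1.51 for orphan over sibling (1.43 to 1.59), 1.33 for orphan over non-sibling (1.30 to 1.35) and 1.14 for non-sibling over sibling (1.08 to 1.20). An entry was called higher from a ratio of 2 upwards and lower from 0.5 downwards, and only if its interval excluded 1, so none of these was called. In the orphan over sibling comparison the Xenopus entries with the same seed had ratios of 1.83 (1.71 to 1.97) for xtr-miR-130b, 1.62 (1.42 to 1.86) for xtr-miR-130c, 1.11 (0.801 to 1.57) for xtr-miR-130a and 0.736 (0.686 to 0.789) for xtr-miR-301. dre-miR-454b stood at 1.43, 1.74 and 1.24 times the counts of xtr-miR-130b, in the order orphan, sibling, non-sibling. Values of 3 libraries are given in this order from here on.

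The 4 miR-454 entries differ at their 3′ end alone. Those of 21 and 22 nt (ccr-miR-454b and dre-miR-454b) held nearly the same counts, at a ratio between 0.989 and 0.993 in the 3 libraries. The 24 nt entry ggo-miR-454 held fewer, at 0.325 times dre-miR-454b in the orphan (0.320 to 0.330), 0.249 in the sibling library (0.221 to 0.280), and 0.278 for non-sibling counts (0.269 to 0.288). In the 5p arm of miR-21 the orphan counts did not fall with length. The 24 nt entry, bta-miR-21-5p, held fewer (18005) than those of 22 nt (aca-miR-21-5p, 20081) and 25 nt (sha-miR-21, 20082).

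miR-21, known for its induction by injury and inflammation and in growing tissue, was the other abundant family. sha-miR-21 had 20082, 480 and 9952 counts, or 923, 679 and 1513 scaled CPM. It was highest in the non-sibling library. Non-sibling over sibling came to 2.23 (2.03 to 2.45), which was called higher. Orphan over sibling was 1.36 (1.24 to 1.49) and orphan over non-sibling 0.610 (0.595 to 0.625), neither of which was called. Fewer cells with a microRNA and less of it per cell cannot be told apart in such tissue. The 3p arm, aca-miR-21-3p, had 41, 0 and 18 counts. Its 0 in the sibling library allows up to 4.24 scaled CPM (3 counts), above its level of 1.88 in the orphan and 2.74 in the non-sibling library, so a difference was not detectable at this depth. Counts of the 5p arm were 489.8 times those of the 3p arm in the orphan library (360.9 to 683) and 553 times in the non-sibling library (349.7 to 933).

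dre-miR-141, by name of the epithelial miR-200 family, had 756, 37 and 578 counts, or 34.7, 52.3 and 87.9 scaled CPM. Orphan over non-sibling was 0.395 (0.354 to 0.441), called lower, beside 0.397 (0.380 to 0.415) for xtr-miR-200a. In non-sibling over sibling the ratios were 1.68 (1.20 to 2.41) for dre-miR-141 and 2.12 (1.83 to 2.47) for xtr-miR-200a. Of the summed tissue markers, those of the 3 gut entries were lowest in the orphan library, at 448, 1328 and 1343 scaled CPM. So were those of the 3 skin entries, at 2939, 4161 and 4371. Those of sensory organs (52485, 34184 and 29539) and of muscle (4655, 4442 and 2792) were highest there. Markers of neurons and red blood cells were lowest in the sibling library. None of these entries was at 0, and their part in the result was not tested.

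Several families known mainly from birds, reptiles and fish, for which no role is given here, were present at lower levels. gga-miR-1662, listed under the chicken prefix alone, had 1259, 12 and 170 counts, or 57.9, 17.0 and 25.9 scaled CPM, and was highest in the orphan library. Orphan over sibling was 3.41 (1.95 to 6.62) and orphan over non-sibling 2.24 (1.91 to 2.64), both called higher, though the latter call is lost under scaling by total counts. ola-miR-1788 had 656, 10 and 54 counts, or 30.1, 14.1 and 8.21 scaled CPM. It too was highest in the orphan library, at 3.67 times the non-sibling level (2.78 to 4.94). Its ratio to the sibling level of 2.13 (1.15 to 4.47) was called, but not under scaling on Xenopus entries alone. tgu-miR-1329 stood at 13.7, 7.07 and 20.8 scaled CPM, and non-sibling over sibling was 2.95 (1.23 to 9.22), on 5 sibling counts. gga-miR-456 had 478, 35 and 207 counts, and orphan over sibling was 0.444 (0.315 to 0.645), a call that is lost under total counts. aca-miR-458 stood at 39.75, 39.6 and 46.5 scaled CPM and gga-miR-1805-3p at 7.40, 8.48 and 6.39, with no call in any comparison. gga-miR-1805-3p had 6 sibling counts. Its intervals of 0.392 to 2.41 (orphan over sibling) and 0.318 to 2.17 (non-sibling over sibling) hold both 0.5 and 2.

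miR-460 was read from both arms. gga-miR-460a (5p) stood at 12.8, 22.6 and 13.5 scaled CPM and aca-miR-460a-3p at 15.2, 24.0 and 10.6. For these entries the 5p arm had 0.840 times the counts of the 3p arm in the orphan (0.713 to 0.988), 0.941 in the sibling library (0.445 to 1.98), and 1.27 for non-sibling counts (0.919 to 1.76). This ratio sets a chicken 5p against a lizard 3p entry and depends on the entries taken. Some other entries held fewer counts, namely 40, 3 and 7 for ccr-miR-460-5p and 28, 3 and 13 for tgu-miR-460a-3p. aca-miR-460a-3p was at 0.443 times the sibling level in the non-sibling library (0.258 to 0.803), called lower but not so under total counts, and the 5p arm was at 0.598 times (0.349 to 1.09). gga-miR-460b-5p had 65, 1 and 23 counts.

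miR-1306, which in mammals lies within the gene of DGCR8, had the lowest ratios to the sibling library among the vertebrate families. hsa-miR-1306-5p had 97, 84 and 52 counts, or 4.46, 119 and 7.91 scaled CPM. The sibling library was far above both others. Orphan over sibling was 0.0375 (0.0277 to 0.0509) and non-sibling over sibling 0.0666 (0.0462 to 0.0952), both called lower. Orphan over non-sibling was 0.564 (0.398 to 0.806), with no call. For the 3p arm, aca-miR-1306, with 19, 6 and 6 counts, orphan over sibling was 0.103 (0.0395 to 0.315) and non-sibling over sibling 0.108 (0.0288 to 0.402). The 3p entries kept here passed the filter only through their sibling counts, the library in which they were high, so these ratios are a description and support no pattern. Other entries of that arm, hsa-miR-1306-3p and cgr-miR-1306-3p, had 2 sibling counts each and fell below the filter. The ratio between the arms therefore depends on the 3p entry taken, here aca-miR-1306. Counts of the 5p arm were 5.11 times those of the 3p arm in the orphan (3.10 to 8.84), 14.0 times in the sibling library (6.17 to 39.2), and 8.67 times for non-sibling counts (3.72 to 24.7). hsa-miR-1306-5p has a GC content of 63.6% and is the vertebrate entry that ends in CCA.

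**Figure D3:**
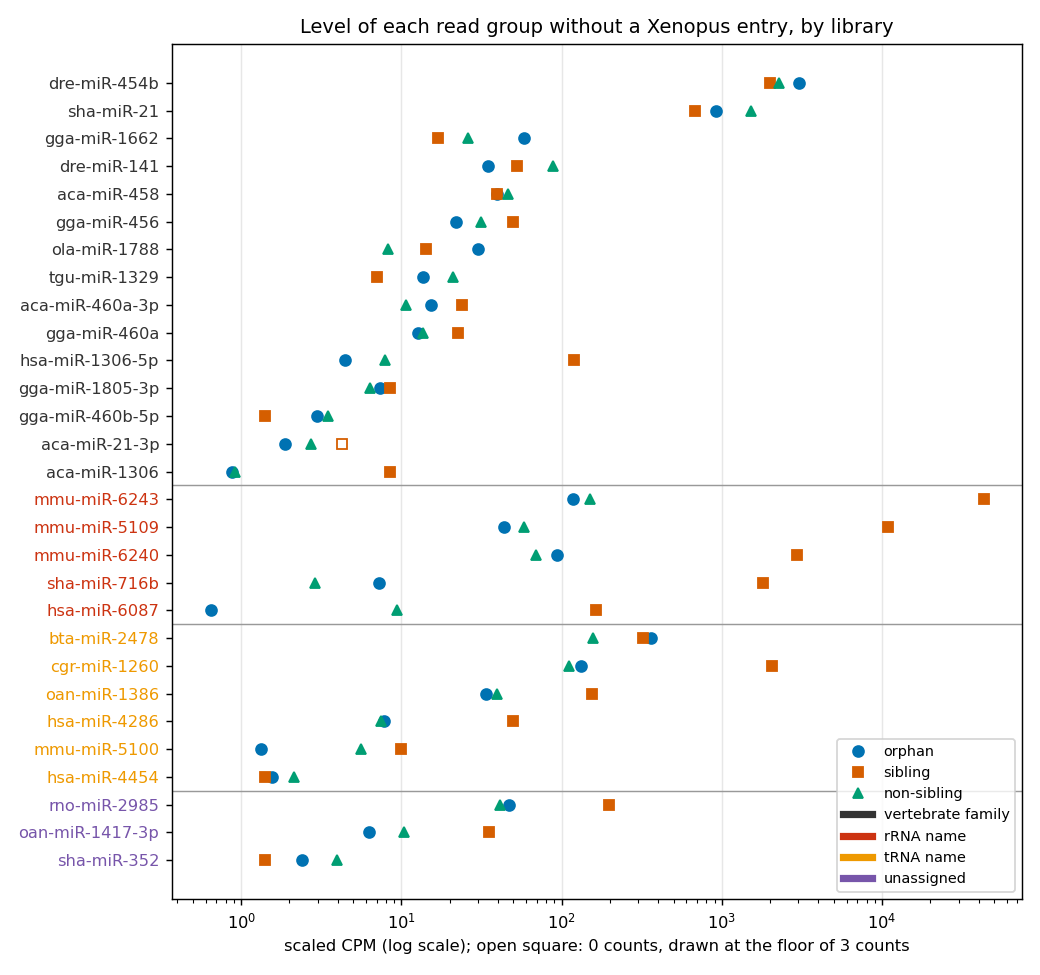
Level (x axis, scaled CPM, log scale) of the most abundant entry of each of the 29 read groups in the 3 libraries, ordered by kind of entry. The sibling library (squares) lies to the right of both others for all 5 rRNA names, for cgr-miR-1260 and for hsa-miR-1306-5p. It also does so for further vertebrate, tRNA and unassigned read groups, such as gga-miR-456, oan-miR-1386 and rno-miR-2985. The levels of dre-miR-454b lie between 2008 and 3024 scaled CPM. The open square marks 0 counts.

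All 5 rRNA names were far more abundant in the sibling library than in either other library. mmu-miR-6243 had 2554, 30506 and 993 counts, or 117, 43129 and 150.995 scaled CPM. Orphan over sibling was 0.00272 (0.00261 to 0.00283) and non-sibling over sibling 0.00350 (0.00328 to 0.00373). By counts it ranked 3 of the 866 entries in the sibling library. Its log2 ratio in the authors' deposited table, made from quantile-normalized counts, was 7.97 for sibling over orphan and -7.84 for non-sibling over sibling. Both are smaller in size than the plain ratios of those counts. mmu-miR-5109 stood at 43.7, 10817 and 58.2 scaled CPM and mmu-miR-6240 had 2026, 2091 and 452 counts (93.1, 2956 and 68.7 scaled CPM). sha-miR-716b had 157, 1285 and 19 counts, or 7.21, 1817 and 2.89 scaled CPM. hsa-miR-6087, the richest in GC at 83.3%, had 14, 116 and 62 counts, or 0.643, 164 and 9.43 scaled CPM. The sibling library, the shallowest, was thus the highest in each of the 5, also in raw counts.

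The rRNA names did not keep 1 proportion to each other. mmu-miR-6243 had 2.68 times the counts of mmu-miR-5109 in the orphan library (2.49 to 2.89), 3.99 times in the sibling library (3.89 to 4.09), and 2.59 times for non-sibling counts (2.30 to 2.92). For mmu-miR-6240 against mmu-miR-5109 these values were 2.13 (1.97 to 2.30), 0.273 (0.260 to 0.287) and 1.18 (1.03 to 1.36). For hsa-miR-6087 against mmu-miR-6243 they were 0.00548, 0.00380 and 0.0624. Between the deeper libraries, orphan over non-sibling, sha-miR-716b was at 2.50 (1.55 to 4.26), a call lost under total counts, hsa-miR-6087 at 0.0682 (0.0353 to 0.123), and the other 3 between 0.751 and 1.36.

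The tRNA names were more mixed. cgr-miR-1260, whose last letters are CCA, stood at 132, 2042 and 112 scaled CPM and was high in the sibling library alone. bta-miR-2478 had 7829, 229 and 1039 counts, or 359.8, 323.8 and 158 scaled CPM. It was level between the orphan and sibling libraries, with a ratio of 1.11 (0.974 to 1.27), and lowest in the non-sibling library, at 0.488 times the sibling level (0.423 to 0.566). That call, and its ratio of 2.28 (2.13 to 2.43) in orphan over non-sibling, are lost under total counts. Counts of bta-miR-2478 were 2.72 times those of cgr-miR-1260 in the orphan library (2.61 to 2.84), 0.159 times in the sibling library (0.137 to 0.182), and 1.41 times for non-sibling counts (1.28 to 1.55). oan-miR-1386 had 730, 109 and 261 counts, with an orphan level of 0.218 times (0.178 to 0.269) and a non-sibling level of 0.258 times the sibling level (0.205 to 0.325). hsa-miR-4286 had 170, 35 and 49 counts, or 7.81, 49.5 and 7.45 scaled CPM. Orphan over sibling was 0.158 (0.109 to 0.234) and non-sibling over sibling 0.151 (0.0956 to 0.239), both called lower. mmu-miR-5100 had 29, 7 and 37 counts, or 1.33, 9.90 and 5.63 scaled CPM. Its orphan over sibling ratio of 0.135 (0.0577 to 0.364) was called lower, and non-sibling over sibling was not called. hsa-miR-4454 had 34, 1 and 14 counts and no call in any comparison.

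The unassigned entries carry no known role here. Over a run of 9 bases rno-miR-2985 has the same letters as bta-miR-2478, which was placed with tRNA. No other pair of entries from different families in the set shares a run that long. What this means for the place of rno-miR-2985 was not tested. rno-miR-2985 had 1015, 140 and 271 counts, or 46.6, 198 and 41.2 scaled CPM, with the orphan level at 0.236 times (0.197 to 0.283) and the non-sibling level at 0.208 times the sibling level (0.169 to 0.257). oan-miR-1417-3p was also highest in the sibling library, at 35.3 scaled CPM against 6.30 in the orphan and 10.3 in the non-sibling library. sha-miR-352 had 52, 1 and 26 counts and no call in any comparison.

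In orphan over sibling, 19 of the 51 entries were called lower in the orphan library, or 37.3%, where 15.5% of all 866 entries were, and 3 were called higher, or 5.88%, where 9.12% of all entries were. Their median log2 ratio was -0.70, beside 0.06 over all entries. The lower calls were all 5 rRNA names, 4 of the 6 tRNA names, 2 of the 3 unassigned entries and 8 of the 37 vertebrate entries, namely the 6 of miR-1306 and the 2 of miR-456. Without the 3 miR-1306 3p entries that passed the filter only through sibling counts, 16 of 48 entries were lower, or 33.3%. The higher calls were gga-miR-1662 and both miR-1788 entries.

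In non-sibling over sibling, which shares the sibling library with the comparison above, 20 of 51 entries were lower, or 39.2%, where 12.1% of all entries were, and 6 were higher, or 11.8%, where 11.2% of all entries were. The median log2 ratio was -0.84, beside -0.03 over all entries. Without the same 3 miR-1306 3p entries, 17 of 48 were lower, or 35.4%. Lower calls took in all 5 rRNA names, 2 of 3 unassigned entries and 4 of 6 tRNA names, with bta-miR-2478 among them and mmu-miR-5100 not, the reverse of orphan over sibling. Of the 37 vertebrate entries the 6 of miR-1306 and 3 of the 3p arm of miR-460 were lower. The higher calls were 3 entries of the 5p arm of miR-21 and 3 of miR-1329, or 2 read groups. Under scaling by total counts 8 of the 51 entries were higher, where 33.1% of all entries then were. In that scaling 16 were lower, where 6.58% of all entries were.

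In orphan over non-sibling, without the sibling library, 5 entries were higher, or 9.80%, where 7.51% of all entries were, and 3 were lower, or 5.88%, where 12.6% of all entries were. The median log2 ratio was -0.14, beside 0.02 over all entries. The higher calls were gga-miR-1662, both miR-1788 entries, bta-miR-2478 and sha-miR-716b, and the lower calls were dre-miR-141, hsa-miR-6087 and mmu-miR-5100. Scaling by total counts turned this into 2 higher and 13 lower, where 25.98% of all entries were then lower. In the vertebrate families alone the median log2 ratios were -0.31, -0.51 and -0.14 in the 3 comparisons in the order given, and that of non-sibling over sibling became 0.13 under total counts. With 1 entry for each of the 15 vertebrate read groups they were -0.02, 0.18 and -0.23, so no direction of the vertebrate families as a whole is given against the sibling library. With 5 added to each count the medians over all vertebrate entries were -1.03, -1.05 and -0.40. Added counts weigh more in a shallower library, so these last values are set partly by depth and describe no difference in level.

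**Figure D4:**
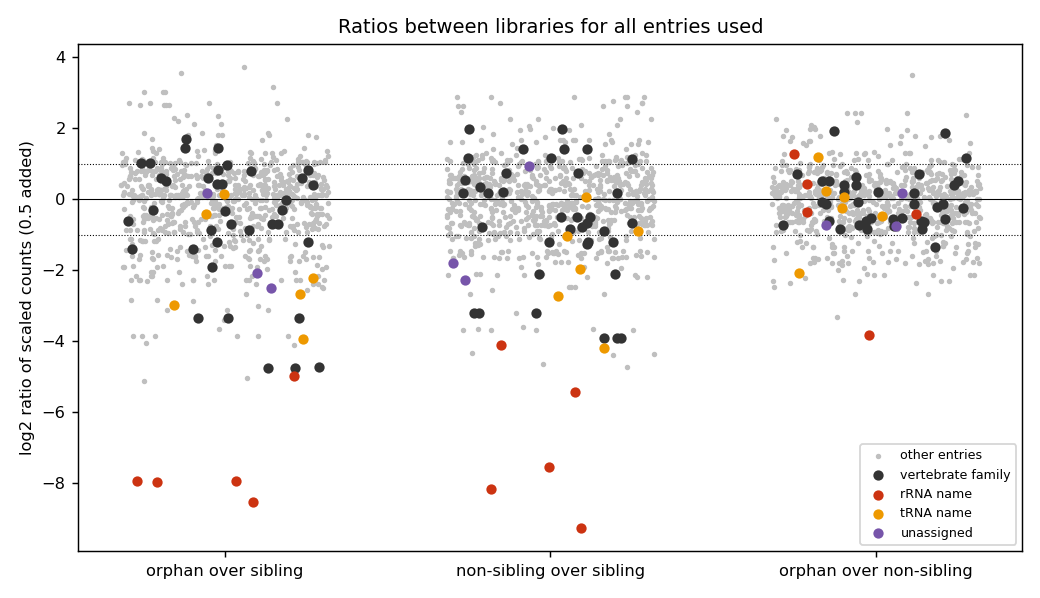
Log2 ratio of scaled counts (y axis, 0.5 added to each count) for the 866 entries in the 3 comparisons, with dotted lines at a ratio of 2 and of 0.5. All 5 rRNA names (red) lie far below 0 in both comparisons with the sibling library, with medians of -7.95 and -7.54. In orphan over non-sibling their median is -0.36, with hsa-miR-6087 lowest at -3.83.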

How the data were processed

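Each rearing condition was profiled as 1 library of accessory olfactory bulb tissue. The deposited table gives raw counts per mature microRNA entry, per the file headers. It also holds a signal, the quantile-normalized counts made by the authors, and log2 ratios of those counts, as deposited by the authors, with no stated offset. They are not plain ratios. For aca-miR-21-3p, with 19.3 orphan and 0.333 sibling quantile-normalized counts, the deposited log2 ratio of sibling over orphan is -0.245. The labels' protocol names an mRNA kit while the sample descriptions say miRNA, so the library method is not settled. The sources used here do not name the aligner, microRNA release or build.

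TMM scaling used the calcNormFactors function of edgeR 4.0.16 (R 4.3.3) on the 866 entries with at least 30 counts. The factors were 0.966 (orphan), 0.817 (sibling) and 1.27 (non-sibling). Ratios carry exact conditional 95% (Clopper-Pearson) intervals, which like all intervals here cover counting error only, since amplified reads are not independent molecules. For log2 ratios 0.5 was added to every count first. A count of 0 was given a floor of 3 counts per library. The calculation was tested on simulated data. Alternatives were total counts, DESeq2 1.42.0 size factors, TMM on Xenopus entries, a sum of at least 150, 5 added counts and 1 entry per sequence. Scaling without the set, read groups, leaving out entries that passed only with sibling counts and extended name lists were chosen after seeing the data. Duplexes were computed with RNAduplex (ViennaRNA 2.7.2), other values with Python 3.11.15, numpy 2.4.6, pandas 2.3.3, scipy 1.17.1 and matplotlib 3.10.9. Each read group is named by its most abundant entry, and full values go to the 12 members with most counts, the largest ratios past the size rule and the leading entries of each kind. Members and lists were chosen with earlier results of these data known.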

Additional observations from a re-analysis of the deposited data

How the results depend on the processing

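No paired analysis was possible because each condition has 1 library, and for the same reason no library could be left out. Of the counts of called entries, that of higher entries in orphan over sibling (3) became 1 under scaling on Xenopus entries alone and 1 with a sum of at least 150, and that in non-sibling over sibling (6) became 2 with 1 entry per read group. In orphan over non-sibling, total counts gave 2 higher entries in place of 5 and 13 lower in place of 3. The other alternatives kept these counts within 1.5 times. Among them, 1 entry per distinct sequence could not change the counts, since all 51 entries differ in sequence. With 1 entry per distinct sequence in the whole table, the shares of counts were 1.65% (orphan), 6.83% (sibling) and 2.02% (non-sibling), and with 1 entry per read group 0.487%, 5.29% and 0.5996%. Leaving out the 3 entries that passed the filter only with sibling counts gave 16 and 17 lower calls against sibling in place of 19 and 20. Under total counts the median over the 866 entries shifted on the log2 scale by 0.24 (orphan over sibling), 0.63 (non-sibling over sibling) and -0.39 (orphan over non-sibling). The median of the vertebrate families in non-sibling over sibling (extended lists) turned to 0.13 under total counts and 0.18 with 1 entry per read group. Total counts also turned it to -0.21 in orphan over non-sibling (first lists, 0.18 before). The cause was not tested. Of 14 read groups called lower in each comparison with sibling, 13 (orphan) and 12 (non-sibling) stayed so under the 4 other scalings. These counts include aca-miR-1306, which passed the filter only with its sibling counts and supports no pattern. Without the filter on low counts the medians of the set against sibling were -3.31 and -3.25 over 190 entries. With 0.5 added to each count, an entry with hardly any counts in either library takes a ratio set mainly by depth. These medians therefore describe no difference in level. Depth limits the sibling library most, where 18 of 51 entries had fewer than 10 counts.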
